A study of Homo sapiens with 4 samples.

Results

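The zinc finger genes of chromosome 19 with a symbol beginning in ZNF were followed in nascent RNA of K562 cells, a human leukaemia line with erythroid features. Members were all protein-coding genes of that chromosome with such a symbol in GENCODE 29, with ZNF91 and ZNF561 left out, that had at least 1 row in the tables of splicing per intron. They came to 220 genes with 2022 unique introns, of 17770 genes with 209481 introns in the whole series. Of 247 such genes with introns in the annotation, those without reads thus fell out; no level of splicing or reads entered the rule otherwise. Per sample, 174 to 203 of the genes had reads. Read-through genes such as ZNF816-ZNF321P count as members of their own, and 28 introns belong to 2 or more members. Members can thus share reads, and counts of members are not counts of separate genes throughout. For comparison, 210 ZNF genes of other chromosomes with 2007 introns were described the same way.

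The series holds 4 samples of this line, 2 carrying wild-type SF3B1 (WT) and 2 carrying SF3B1 K700E. SF3B1 is the part of the U2 snRNP that contacts the branch site of introns, and K700E is a recurrent mutation of it in blood cancers. All 4 samples, WT included, were harvested 4 days after doxycycline at 1 µg/ml was given to induce the modified allele. RNA bound to chromatin was stripped of its polyadenylated and ribosomal part and read as long cDNA, so that 1 read can show an RNA still being made together with the introns already removed from it. The sources used here do not say whether the cells keep unmodified SF3B1 alleles, whether each line is 1 clone or whether replicates came from separate cultures. If they did not, the p-values below measure technical spread alone.

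The ZNF genes of chromosome 19 arose by repeated tandem duplication and stand in clusters. Most encode a protein with a KRAB domain at its start, which recruits the corepressor TRIM28, followed by a row of C2H2 zinc fingers that bind DNA, in many cases in transposable elements. The KRAB domain is encoded by short internal exons, and the fingers by 1 long last exon.

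That layout was plain in the annotation. The last exon of a member's transcript with the longest coding part had a median length of 2680.5 nt, against 1072 nt in 19407 other protein-coding genes. The most common length of an internal exon in or reaching the coding part was 127 nt, found in 176 of the 220 genes (80.0%), in 40.2% of 266 annotated ZNF genes of other chromosomes and in 5.09% of the other protein-coding genes. The exon that followed it was most often 96 nt long (59 genes). In 172 genes the 127-nt exon was fully coding. Any pair of these 172 exons shared a median of 66.9% of their bases, 11 pairs were identical, and 45 of the 127 positions held the same base in over 90% of the genes. Below are 4 of them, shown because the splicing of these genes is described further on. Capitals mark the 70 positions that all 4 share. They are, in GRCh38, chr19:52808007-52808133 (ZNF28, minus strand), chr19:43919573-43919699 (ZNF45, minus strand), chr19:19915280-19915406 (ZNF93, plus strand) and chr19:52076958-52077084 (ZNF841, minus strand).
ZNF28: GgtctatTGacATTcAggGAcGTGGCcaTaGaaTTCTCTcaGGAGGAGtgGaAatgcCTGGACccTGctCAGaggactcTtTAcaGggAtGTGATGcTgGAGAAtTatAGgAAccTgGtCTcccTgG
ZNF45: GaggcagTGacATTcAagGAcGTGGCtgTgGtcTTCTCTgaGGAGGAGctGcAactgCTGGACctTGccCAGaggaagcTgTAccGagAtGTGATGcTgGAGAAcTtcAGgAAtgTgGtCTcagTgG
ZNF93: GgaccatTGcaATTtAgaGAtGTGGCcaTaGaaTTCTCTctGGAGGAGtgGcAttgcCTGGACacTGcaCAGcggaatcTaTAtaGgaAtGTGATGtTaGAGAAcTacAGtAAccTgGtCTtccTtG
ZNF841: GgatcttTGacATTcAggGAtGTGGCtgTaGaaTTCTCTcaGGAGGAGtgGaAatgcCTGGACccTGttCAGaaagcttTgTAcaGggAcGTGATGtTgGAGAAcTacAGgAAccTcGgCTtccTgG

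ZNF28 and ZNF841, of the same gene cluster, shared 84.25% of the exon's bases, and ZNF45 and ZNF93, of different clusters, 66.1%.

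The last exon carries the repeat that joins one zinc finger to the next. The motif ACNGGNGANAANCC was searched on the sense strand of the transcripts. It occurred in 195 of the 220 members (88.6%), in 67.3% of the ZNF genes of other chromosomes and in 1.03% of other protein-coding genes. Members that held it had a median of 7 copies and at most 25, and 96.4% of the copies lay in the last exon. The first copy in the last exon of 4 genes is given with 8 bases on each side, with the match in capitals. The search itself set the capitals, so only the positions marked N and the flanking bases could differ.
ZNF611: caattgatACTGGAGAAAATCCttacaagt
ZNF468: gatgtcacACTGGTGAGAAACCttacaagt
ZNF714: caagacatACTGGAGAGAAACCtttcaaat
ZNF28: taattcacACTGGAGAGAAACCttacaagt

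Exact copies were searched in spliced transcripts only, so the search does not cover the introns themselves. In 46 of 220 genes the longest transcript shared any window of 100 nt with a gene elsewhere. In 6 more than 10% of its windows did, among them ZNF417 with 24.1% and ZNF587 with 12.4%. Many members overlap other genes: 115 overlap a gene on the opposite strand and 98 a gene on their own strand. The sources used here do not say whether strand was used in counting, so reads of overlapping genes, such as ZNF587 and ZNF814, cannot be told apart with certainty.

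The tables give, for each intron, the reads over it and those with its splice junction. A long read adds 1 to each intron it covers, and such counts are called read-intron overlaps here. They summed to 1346733 and 1185006 in WT replicates 1 and 2 and to 459681 and 909621 in K700E replicates 1 and 2. Of 12 erythroid and K562 markers, 11 had reads (KLF1 had none), and together they took 0.293 to 0.464% of overlaps. Of 10 epithelial markers, 7 had reads, with a sum of 0.00565 to 0.00891%, while KRT5, CLDN4 and GRHL2 had none; the labels call the cells epithelial.

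Members were covered thinly. Summed over the 4 samples, the median member intron had 6 reads, as did the median intron of the series. Reads were present in every sample over 856 of the 2022 introns, a junction read in any sample was seen for 865, and 17 introns of 9 genes had 10 or more reads in each sample. Single introns could therefore be compared for few genes, and most of what follows rests on sums over a gene or over all members.

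Splicing of the members was far from complete in these nascent RNAs. Annotated introns of 1 gene often overlap, and a read that removed one of them counts as unspliced for its rivals, so the non-overlapping introns with the most junction reads in each gene were taken as its most used introns (1020 of 2022). In these, 50.04 and 45.2% of the overlaps in WT replicates 1 and 2 had the junction. K700E replicates 1 and 2 gave 35.4 and 54.8%. The 2 K700E samples thus lay on either side of the WT samples, and the means of 47.6% ± 3.43 (SD, n = 2) in WT and 45.1% ± 13.7 (SD, n = 2) in K700E differed by less than the spread. Without K700E replicate 1 the difference changed sign, to 7.19 percentage points higher in K700E.

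**Figure D1:**
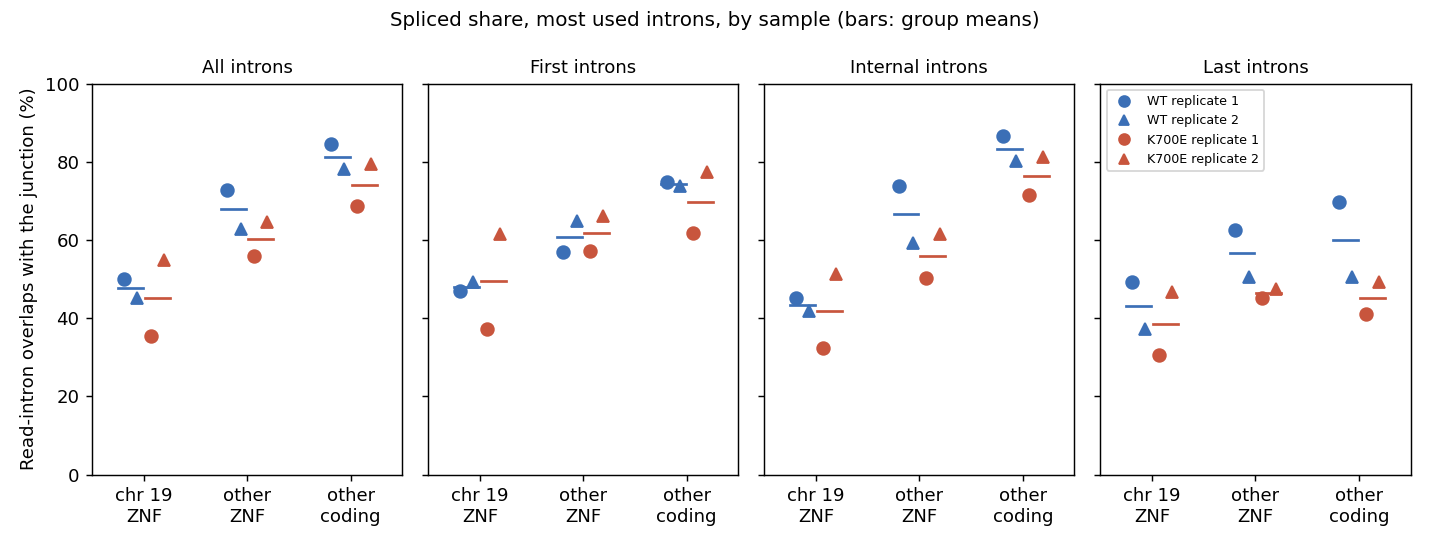
Share of read-intron overlaps with the splice junction (%, vertical axis) over the most used introns in each of the 4 samples, for chromosome 19 ZNF genes, ZNF genes of other chromosomes and other protein-coding genes (horizontal axis), for all introns and by position in the gene; horizontal bars are means of 2 samples. In every panel the chromosome 19 ZNF genes have the lowest value of the 3 sets in each sample, as with 50.04% against 72.9 and 84.6% over all introns in WT replicate 1.

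In each of the 4 samples the members were spliced less than the other sets. ZNF genes of other chromosomes gave 72.9 and 62.9% in WT and 56.0 and 64.7% in K700E. Other protein-coding genes gave 84.6 and 78.1% in WT and 68.8 and 79.4% in K700E. K700E replicate 1 had the lowest value of the 4 samples in all 3 sets, which share their libraries. With every annotated intron counted, the members' shares were 30.1, 26.0, 20.1 and 30.7%, and those of other protein-coding genes 65.3, 56.2, 50.1 and 57.0%, in the same order of samples.

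Over the most used introns the members were lower than other protein-coding genes at each position in the gene and in each of the length classes examined. The exception was transcripts with a sole intron, where K700E replicate 1 gave 19.6% in members and 19.2% in other genes. Introns whose position varies between transcripts were classed apart, so the class of last introns is not the same as the introns before the exon with the fingers. In members, last introns gave 49.2 and 37.2% in WT and 30.5 and 46.7% in K700E. In other protein-coding genes they gave 69.7, 50.5, 41.1 and 49.2%. The gap was wider over internal introns, with 45.2, 41.8, 32.5 and 51.4% in members against 86.6, 80.1, 71.4 and 81.4%. Short introns were the least spliced: under 500 nt, members gave 28.9, 28.1, 23.0 and 34.7%. In the class with a median length of 4365 nt they gave 59.5, 49.8, 38.9 and 60.7%, and in the longest class (median 14766 nt) 52.3, 55.1, 45.7 and 63.9%. In other protein-coding genes the introns under 500 nt were likewise the lowest, with 70.9, 66.3, 54.8 and 63.9%. With every annotated intron counted, the gap was seen in each sample over internal introns but not over first, last or sole introns. First introns gave 22.1, 22.8, 18.3 and 28.8% in members and 21.2, 24.2, 21.2 and 26.5% in other protein-coding genes. Last introns gave 28.5, 20.4, 15.9 and 25.1% in members and 30.6, 19.9, 18.3 and 18.5% in the others, so that members were higher in WT replicate 2 and K700E replicate 2. Sole introns gave 4.71, 3.14, 6.70 and 6.88% in members and 7.57, 5.51, 4.93 and 5.61% in the others.

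The introns on either side of the 127-nt exons were compared next. The most used introns before these exons had the junction in 54.9 and 57.3% of overlaps in WT and in 50.5 and 67.1% in K700E. Those after them had it in 49.3 and 44.0% in WT and in 40.6 and 53.1% in K700E, so the downstream side was lower in every sample. With every annotated intron counted this did not hold in WT replicate 1, where the upstream side gave 35.1% and the downstream side 37.2%; the other samples gave 38.3 and 33.5%, 33.0 and 30.4%, and 43.6 and 40.8%. Annotated junctions that jump over a 127-nt exon had 12, 14, 6 and 23 junction reads in WT replicates 1 and 2 and K700E replicates 1 and 2. That is 3.85, 3.18, 2.77 and 4.72% of the sum of these reads and the mean number of junction reads on the 2 sides. Such junctions were listed for 92 introns of 63 genes, against 310 introns of 185 genes before the exons and 276 of 184 after. Skipping could not be counted in the other genes, so these shares do not give its rate over all 127-nt exons. The K700E samples again lay on either side of both WT samples.

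Single genes ran from almost fully spliced to having no junction read. Among 84 members with 40 or more overlaps of most used introns over all samples, pooled over samples, the median gene had 50.8% spliced, and 47.6% of them were below 50%. With each sample weighted equally the median was 47.9%. The median was 67.7% over 87 ZNF genes of other chromosomes and 77.1% over 6317 other protein-coding genes, of which 15.6% were below 50%.

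Genes were ranked by the mean of their values in the samples. ZNF235 was highest, with 92.9, 100, 100 and 95.5% in WT replicates 1 and 2 and K700E replicates 1 and 2 (65 overlaps, mean 97.1%). ZNF441 (89.9% ± 17.6), ZNF274 (84.0% ± 16.6) and ZNF460 (83.2% ± 8.83) followed (SD over 4 samples), closer to each other than their spread. ZNF274 is known to bind the zinc finger genes themselves and to recruit SETDB1 there. At the other end, ZNF415 had no junction read in the 91 overlaps of its most used introns, a floor of 3.30% if every overlap were its own read. No junction read was seen either in ZNF69, ZNF563 or ZNF439 (66, 51 and 45 overlaps). ZNF814 had 1 junction read in 67 overlaps, and ZNF429 a mean of 8.11% ± 8.88. One read can add to several overlaps and reads without molecular identifiers are not independent molecules, so the true limit is wider than this floor. ZNF415 overlaps ZNF347, and ZNF439 another gene, on its own strand, and ZNF814 overlaps ZNF587 on the other. Whether unspliced reads of those genes were counted here was not tested.

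The 10 members with the most overlaps were ZNF611, ZNF320, ZNF468, ZNF714, ZNF816, ZNF83, ZNF808, ZNF562, ZNF28 and ZNF600. All but ZNF714 and ZNF562 lie in the cluster of 40 genes from ZNF175 to ZNF331. The ranking sums over every annotated intron, rivals included. In most used introns ZNF611 had 208 overlaps, while ZNF841, not among the 10, had 345. ZNF468 overlaps ZNF28 and ZNF320 on its own strand, so reads of these 3 cannot be told apart with certainty. Splicing of the 10 members differed widely. By the mean of the 4 samples over the most used introns, ZNF816 had 66.8%, ZNF808 59.2%, ZNF83 54.5% and ZNF562 54.4%. ZNF714 had 45.8%, ZNF28 26.1%, ZNF468 23.1%, ZNF320 19.3%, ZNF611 18.6% and ZNF600 13.8%. ZNF816 and ZNF600 thus stood far apart although they belong to the same cluster.

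Whether K700E changed the splicing of single introns was asked first. Spliced and unspliced reads were compared with edgeR's quasi-likelihood test over all introns with 10 or more reads in every sample, with Benjamini-Hochberg adjustment over all of them. Of the 17 member introns, 13 were tested, the other 4 never having been seen spliced. None passed 0.05 (adjusted p 0.985 to 0.996), nor did any have an unadjusted p under 0.05. Over all 5093 introns tested, 5 passed (0.0982%) and 3.06% had an unadjusted p under 0.05. Tests on simulated counts showed that at this depth the test finds few changes even of large size in introns that are nearly always or nearly never spliced, so the absence of calls does not show that these introns were spliced alike.

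Both K700E values lay above both WT values in 4 of the 13 introns and below them in 1; over all introns the shares were 9.19 and 19.9%. The median difference, K700E minus WT, was 10.9 percentage points over the 13 introns and -1.67 over all introns tested. Of the 4 higher introns, 3 belong to ZNF714 and can share reads. At 5 or more reads in every sample, 111 introns were tested, 0 passed (0 with an unadjusted p under 0.05) and the median difference was 0.893 percentage points. At that minimum 11 lay higher in both K700E samples and 14 lower; over all 15616 introns it was 9.52 and 17.7%, with 0.0256% past the threshold and 2.31% under an unadjusted 0.05.

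**Figure D2:**
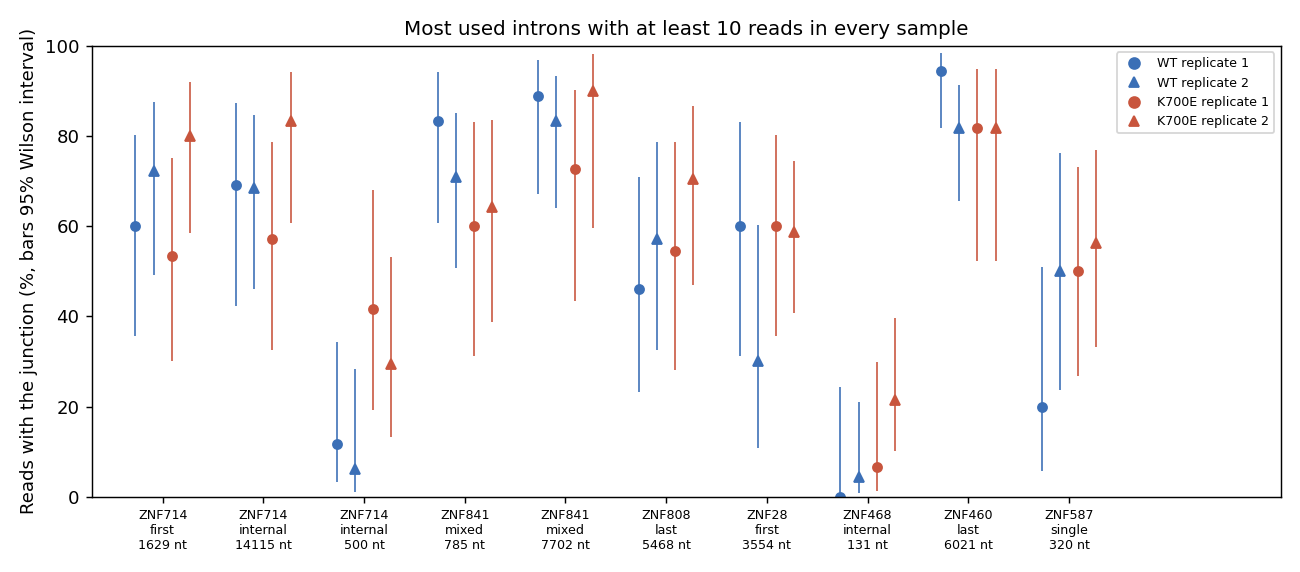
Share of reads with the junction (%, vertical axis) in each sample for the 10 most used member introns with 10 or more reads in every sample that could be tested (horizontal axis: gene, position and length); bars are 95% Wilson intervals, which cover counting error only. The intervals of WT and K700E overlap for each intron, also for the ZNF714 intron of 500 nt, where both K700E points (41.7 and 29.4%) stand above both WT points (11.8 and 6.25%).

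The intron after the 127-nt exon of ZNF714, chr19:21098312-21098811 on the plus strand of GRCh38, had the junction in 2 of 17 and 1 of 16 reads in WT and in 5 of 12 and 5 of 17 in K700E. These are 11.8% (95% Wilson interval 3.29 to 34.3) and 6.25% (1.11 to 28.3) in WT, and 41.7% (19.3 to 68.1) and 29.4% (13.3 to 53.1) in K700E. Both K700E values were higher, and the difference of 26.5 percentage points had an adjusted p of 0.985 in edgeR's test. The annotation holds a second form of this intron, 503 nt long in place of 500, whose acceptor lies a little further on. Its reads were almost the same (junction reads 2, 1, 5 and 5), and the tables do not separate sites so close. The exon junctions of the 2 forms are shown to make the difference visible. In each line below, capitals are the last 3 bases of the upstream exon and the first base of the downstream exon.
ZNF714 form of 500 nt: acctggtcttctTGGCaggtattgctgtct
ZNF714 form of 503 nt: acctggtcttctTGGGtattgctgtctcta

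Another ZNF714 junction, from the first exon straight to the 127-nt exon (chr19:21082349-21098184, in the 5′ UTR), was seen in 0 of 13 and 0 of 18 reads in WT and in 2 of 14 and 3 of 18 in K700E. The exon that it leaves out was joined on its upstream side in 9 of 15 and 13 of 18 WT reads and in 8 of 15 and 16 of 20 K700E reads, values that overlap between groups. The adjusted p of the skipping junction in edgeR's test was 0.985. With 5 junction reads in all, it is a small count.

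In ZNF841 the introns on both sides of its 127-nt exon, printed above, could be read. The one after it, chr19:52076173-52076957 on the minus strand and 785 nt long, was spliced in 15 of 18 and 17 of 24 WT reads and in 6 of 10 and 9 of 14 K700E reads. It was the 1 tested member intron lower in both K700E samples, by 14.9 percentage points (adjusted p = 0.985, edgeR). The one before it, 7702 nt long, was spliced in 16 of 18 and 20 of 24 WT reads and in 8 of 11 and 9 of 10 K700E reads, and the groups overlapped. The 2 junctions of the exon are:
ZNF841 upstream junction: atggctcttcctCAGGgatctttgacattc
ZNF841 downstream junction: acctcggcttccTGGGactctgtcttcctg

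The last introns of 2 genes could be read in every sample. In ZNF460 the last intron, 6021 nt long, was spliced in 34 of 36 and 27 of 33 WT reads and in 9 of 11 reads of each K700E sample. In ZNF808 the last intron, 5468 nt long, was spliced in 6 of 13 and 8 of 14 WT reads and in 6 of 11 and 12 of 17 K700E reads. Neither pair of groups was apart: ZNF460 had 81.8% in 1 WT sample and in both K700E samples. The first intron of ZNF28 had the junction in 6 of 10 and 3 of 10 WT reads and in 9 of 15 and 17 of 29 K700E reads.

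ZNF468 shows how rival sites share reads. An intron of 131 nt in its 5′ UTR, chr19:52854127-52854257, had 0 of 12 and 1 of 23 spliced reads in WT and 1 of 15 and 6 of 28 in K700E. A rival of 150 nt that shares its donor had the same reads over it and no junction read in any sample. The K700E values of the shorter form, 6.67 and 21.4%, lay above those of WT, 0 and 4.35%, with an adjusted p of 0.985 in edgeR's test.

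Summing over all introns of a gene brought in more members. With 10 or more overlaps in every sample, 78 genes qualified and 76 were tested by edgeR's quasi-likelihood test with an estimated dispersion. None passed an adjusted p of 0.05 (all 0.9997), nor did any of the 5085 genes of the series (0.0%). An unadjusted p under 0.05 was reached by 2 members, ZNF461 and ZNF93, or 2.63%, against 3.32% of all genes. DESeq2 also called no member. These sums include rival introns, so 1 read can enter several times. Over most used introns alone, edgeR tested 48 members, and 0 had an unadjusted p under 0.05. ZNF461 and ZNF93 had too few overlaps there to be tested. With all introns summed, both K700E values were lower in 9 members (11.8%) and higher in 14 (18.4%), where all genes gave 21.1 and 10.3%. The median difference was -0.127 percentage points in members and -2.55 over all genes, with quartiles of -5.62 and 4.74 in members.

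**Figure D3:**
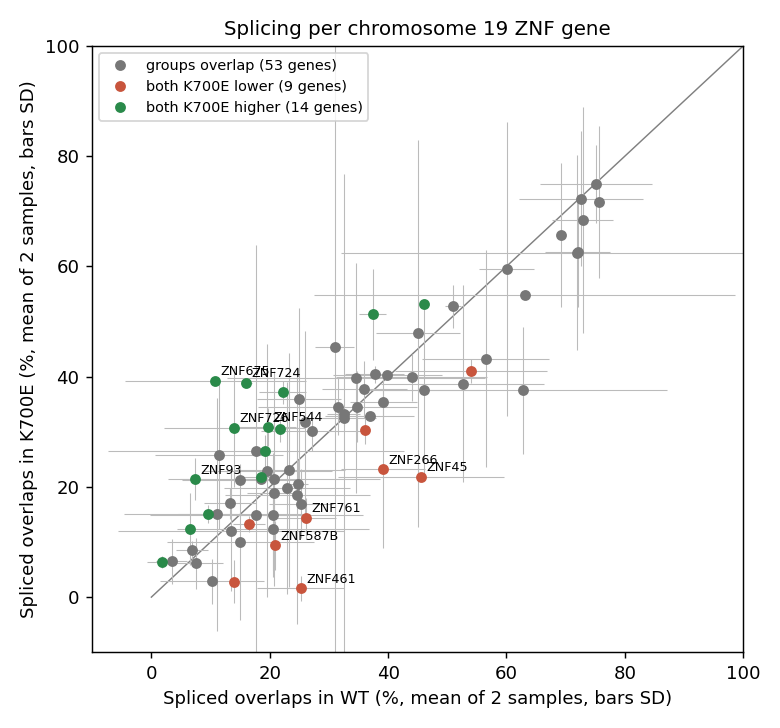
Share of read-intron overlaps with the junction per gene in WT (%, horizontal axis) and K700E (%, vertical axis) for the 76 chromosome 19 ZNF genes tested; points are means of 2 samples, bars SD (cut at the edge of the plot), the line marks equal values and colours show whether the groups overlap. Points scatter on both sides of the line, with 14 genes higher and 9 lower in both K700E samples.

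ZNF461 and ZNF45 had the smallest p of the genes lower in both K700E samples. In ZNF461, 7 of 23 and 5 of 25 overlaps were spliced in WT, and 1 of 31 and 0 of 23 in K700E. That is 25.2% ± 7.38 against 1.61% ± 2.28 (SD, n = 2 each), with an adjusted p of 0.9997 in edgeR's test. ZNF45 had 15 of 27 and 10 of 28 in WT and 6 of 27 and 12 of 56 in K700E, a difference of -23.8 percentage points. ZNF266 followed, with 44.2 and 34.1% in WT and 33.3 and 13.0% in K700E. ZNF761 had 29.7 and 22.6% in WT and 17.0 and 11.8% in K700E. ZNF587B had 21.2 and 20.7% in WT and 12.5 and 6.25% in K700E. These 5 genes lie in 5 different parts of the chromosome, in clusters 9, 12, 3, 15 and 16 by order of position.

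Of the 5 higher genes with the smallest p, 4 belong to the cluster from ZNF101 to ZNF254, which holds 16 of the 76 genes tested. Of those 16, 6 were higher and 1 lower in both K700E samples, and the difference was above 0 in 10 and below 0 in 6; the cluster's own median was 3.04 percentage points. Other genes of it went the other way, such as ZNF626, with 80.0 and 45.5% in WT and 29.4 and 45.7% in K700E. ZNF93, whose protein is known to bind an older LINE-1 family, had 5 of 55 and 4 of 71 overlaps spliced in WT and 6 of 32 and 21 of 87 in K700E. That is 7.36% ± 2.45 against 21.4% ± 3.81 (SD, n = 2 each), with an adjusted p of 0.9997 in edgeR's test. ZNF724 had 15.4 and 16.7% in WT and 38.5 and 39.4% in K700E. ZNF675 had 21.6 and 0% in WT, on 37 and 17 overlaps, and 38.9 and 39.6% in K700E. ZNF726 had 5.56 and 22.4% in WT and 23.1 and 38.5% in K700E. ZNF544, with 16.2 and 23.1% against 28.5 and 33.3%, lies in the cluster nearest the end of the long arm. None of the 10 genes named here passed the test.

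ZNF765 shows how far replicates can stand apart: 30.6 and 34.5% of its overlaps were spliced in WT, but 1 of 41 in K700E replicate 1 and 66 of 103 in replicate 2.

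Member introns took up a larger share of the K700E libraries. Of all read-intron overlaps, 0.332 and 0.610% lay in members in WT and 0.927 and 0.703% in K700E. Both K700E samples were higher, by 0.344 percentage points on average. With 2 samples a group an exact permutation test cannot give a p below 0.333. The order of the 4 shares is the reverse of the order of the libraries' totals, from the deepest (WT replicate 1) to the shallowest (K700E replicate 1), so genotype and depth cannot be told apart in these shares. Counted once per gene, over its most covered intron, the shares were 0.531, 0.944, 1.32 and 1.16%. For ZNF genes of other chromosomes they were 0.879, 1.26, 1.20 and 1.38%, where the groups overlap.

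**Figure D4:**
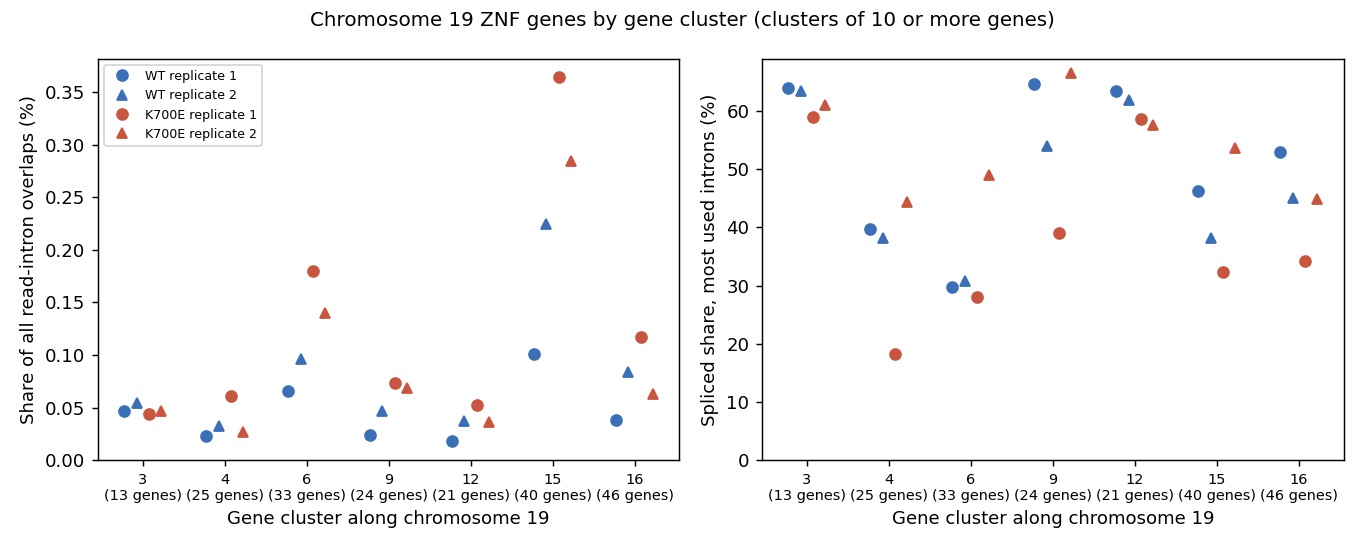
Left, share of all read-intron overlaps (%) that fall in the chromosome 19 ZNF genes of each gene cluster with 10 or more members, by sample; right, share of the overlaps of most used introns that have the junction (%), with clusters numbered by position on the chromosome. The cluster of 40 genes (number 15) holds the largest share in each sample and its 2 K700E points (0.364 and 0.285%) stand above the WT points (0.101 and 0.225%). Cluster 3 differs little between samples, with both K700E points slightly below both WT points.

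The clusters differed in their share of the libraries. Genes more than 1 Mb apart were put in different clusters, which gave 16, of which 7 have 10 or more genes. The cluster at 51571298 to 53580269 (ZNF175 to ZNF331, 40 genes) took 0.101 and 0.225% of overlaps in WT and 0.364 and 0.285% in K700E. Next came the cluster at 19668796 to 24129961 (ZNF101 to ZNF254, 33 genes), with 0.0656 and 0.0962% in WT and 0.1803 and 0.1401% in K700E. In the cluster at 8509678 to 9793180 (ZNF414 to ZNF846, 13 genes) WT gave 0.0472 and 0.0546% and K700E 0.0437 and 0.0465%. The cluster at 55605405 to 58481230 (46 genes) gave 0.0382 and 0.0835% in WT and 0.117 and 0.0629% in K700E, where the groups overlap. These differences between clusters were not tested. In splicing too the clusters differed: the cluster of 13 genes had 63.9, 63.4, 58.9 and 60.9% of its most used overlaps spliced, and the one from ZNF101 to ZNF254 had 29.8, 30.8, 28.1 and 49.0%, in the order WT replicates 1 and 2, K700E replicates 1 and 2.

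The amount of nascent RNA was compared per gene on the reads over its most covered intron, scaled by edgeR's TMM, which sets the libraries on a common size. In bulk samples, fewer cells that make an RNA and less RNA per cell cannot be told apart. With 10 or more reads in at least 2 samples, 34 members were tested, ZNF816 and ZNF816-ZNF321P, whose most covered introns overlap, among them. None passed an adjusted p of 0.05 in edgeR's quasi-likelihood test (0.827 to 0.991), nor did any of the 3071 genes tested (0.0%); DESeq2 called no member either. An unadjusted p under 0.05 was reached by 5 members, or 14.7%, against 5.47% of all genes. The log2 ratio of K700E to WT was above 0 in 26 of the 34 members, against 50.2% of all genes, and below 0 in 8, against 49.8%. Its median was 0.72 in members, 0.01 over all genes and 0.13 over 41 ZNF genes of other chromosomes. The members' shares of these reads, given above, also run opposite to the libraries' totals, so genotype and depth cannot be told apart here either. Both K700E values were higher in 12 members (35.3%) and lower in 2 (5.88%), where all genes gave 16.9 and 18.4%. Of the 34, 4 passed the filter on reads through the WT samples alone (ZNF160, ZNF266, ZNF429 and ZNF558, all below 0) and none through K700E alone, so these counts describe the members that passed and are not support for a direction of the set. With no filter, 61.8% of all 220 members were above 0, against 50.3% of 17770 genes, and their median was 0.33. The filtered members' median fell to 0.43 without K700E replicate 1 and rose to 1.26 without WT replicate 2.

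**Figure D5:**
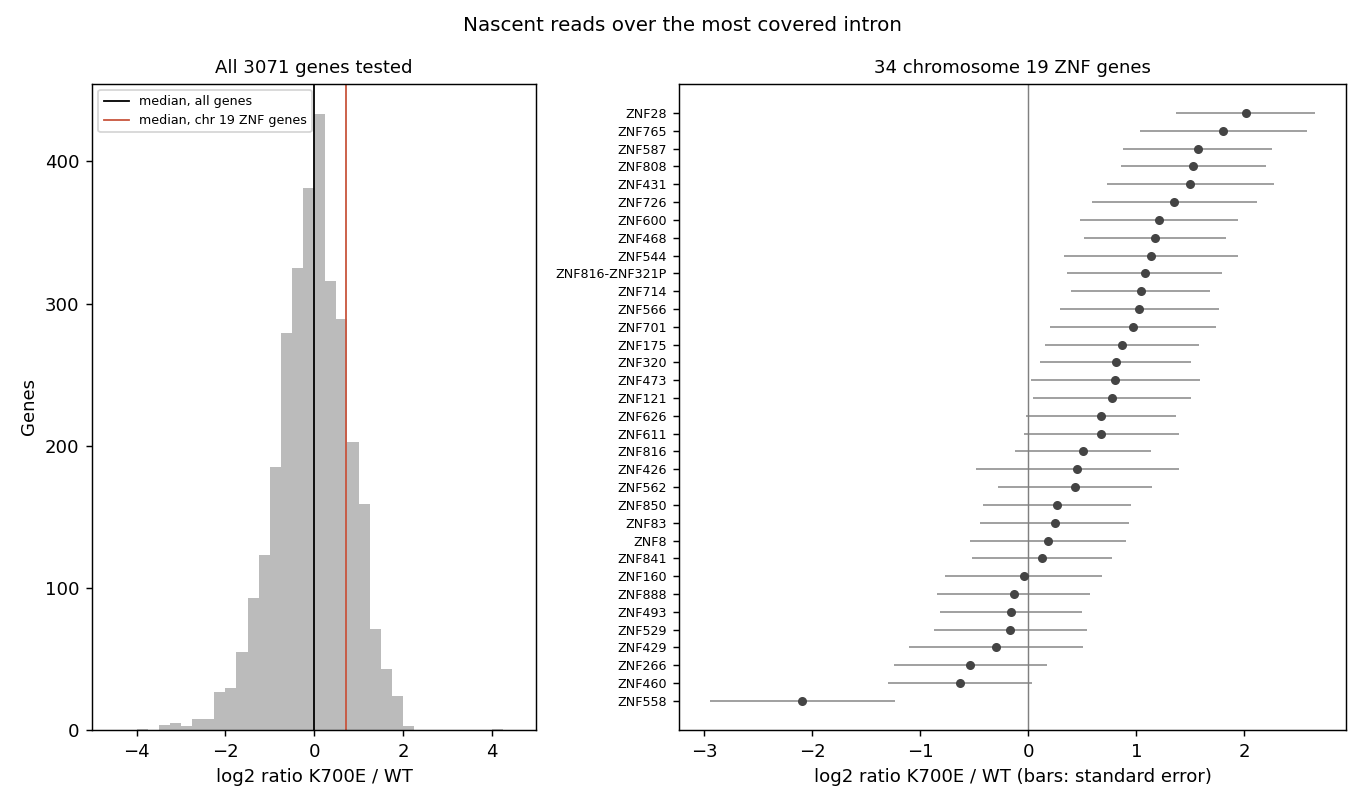
Left, histogram of the log2 ratio of nascent reads, K700E over WT, for all 3071 genes tested, with the median of all genes and of the chromosome 19 ZNF genes; right, the log2 ratio of each of the 34 chromosome 19 ZNF genes with its standard error. Of the 34 genes, 26 lie above 0, from ZNF28 at 2.01 down, and ZNF558 is lowest at -2.09.

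ZNF28 had the smallest p of the members. It had 101, 112, 471 and 406 CPM (reads scaled to the TMM library size) in WT replicates 1 and 2 and K700E replicates 1 and 2, from 10, 10, 15 and 29 reads. Both K700E values were higher, with a log2 ratio of 2.01 ± 0.645 (SE), an unadjusted p of 0.00655 and an adjusted p of 0.827 in edgeR's test. ZNF808, like it in the cluster of 40 genes, had 81.0 and 157 CPM in WT and 408 and 294 in K700E. ZNF765, of the same cluster, had 40.5 and 112 CPM in WT and 126 and 378 in K700E, the last from 27 reads. ZNF431 had 30.4 and 146 CPM in WT and 283 and 224 in K700E. ZNF587 had 101 and 112 CPM in WT and 440 and 224 in K700E, over an intron of 320 nt that ZNF814 overlaps on the other strand.

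The 2 members lower in both K700E samples were ZNF558 and ZNF460. ZNF558 had 213 and 124 CPM in WT and 31.4 and 42.0 in K700E, from 21, 11, 1 and 3 reads, a log2 ratio of -2.09 ± 0.858 (SE, adjusted p = 0.827 in edgeR's test). It passed the filter on reads through its WT samples alone, so a lower K700E value was built into its selection, and the ratio is given as a description. It lies in the cluster of 13 genes, whose share of the libraries was slightly lower in K700E (0.0437 and 0.0465%) than in WT (0.0472 and 0.0546%). ZNF460 had 364 and 371 CPM in WT and 346 and 154 in K700E, with a log2 ratio of -0.63. That value rests on K700E replicate 2: the ratio was -0.04 without it and -1.25 without K700E replicate 1.

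KRAB zinc finger proteins act through TRIM28, the methyltransferase SETDB1 and heterochromatin proteins, so the genes of 25 such partners were read in the same fits. None of the 17 tested for splicing passed the threshold (adjusted p 0.9997, edgeR), and 1, MORC2, had an unadjusted p under 0.05. Of the 17, 11 had a lower and 6 a higher share of spliced overlaps in K700E, with a median difference of -4.58 percentage points. Over all 5085 genes 62.4% were lower, with a median of -2.55. MORC2, an ATPase that works with the HUSH silencing complex, had 48.3 and 42.3% of its overlaps spliced in WT and 71.1 and 68.0% in K700E. CHD4, a remodeller of the NuRD complex, had 77.1 and 76.8% in WT and 49.6 and 74.5% in K700E. FAM208A, which encodes the HUSH subunit TASOR, had 79.7 and 70.1% in WT and 56.5 and 72.3% in K700E, where the groups overlap.

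TRIM28 itself had 54.4 and 43.9% of its overlaps spliced in WT and 57.8 and 61.7% in K700E. Its nascent reads were 314 and 225 CPM in WT and 157 and 112 in K700E, both K700E values lower, with a log2 ratio of -1.04 ± 0.684 (SE, adjusted p = 0.827 in edgeR's test). TRIM28 passed the filter on reads through its WT samples alone, so a lower K700E value was built into its selection. The ratio is given as a description. SETDB1 had 65.1 and 52.7% spliced in WT and 22.5 and 57.5% in K700E. Of the 10 partners tested for nascent reads, 0 passed (0 had an unadjusted p under 0.05), 3 were higher and 7 lower in K700E, where all genes gave 50.2 and 49.8%, and the median log2 ratio was -0.32, against 0.01 over all genes. TRIM28 and HDAC1, both among the lower ones, passed the filter on reads through WT alone. These counts therefore describe the partners that passed and are not support for a direction of the list.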

How the data were processed

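Chromatin-bound RNA of 4 K562 samples was sequenced as long reads. Per the submitters' processing notes, cutadapt, minimap2 and the hg38 build were used; the sources used here give no versions. The authors deposited, per sample and annotated intron, unnormalized counts of reads over the intron and of reads with its junction, and the ratio of the 2 (per the file headers, CoSE). The sources used here do not say by what rule a read was given to an intron. A second deposited table of RNA 3′ end positions was not used. Rows were placed on GENCODE 29 (GRCh38) by transcript, intron number, start and strand (87.3 to 87.6% of rows); an intron listed for several transcripts was used once, at its highest count. Ratios above 1 were set to 1. The K700E tables carry labels of their own inside the files, MUT2 and MUT3, that do not match the replicate numbers 1 and 2 of the titles; the titles were followed.

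Tests used edgeR 4.0.16 in R 4.3.3 (quasi-likelihood, two-sided, Benjamini-Hochberg over all features, threshold 0.05): paired spliced and unspliced counts per intron (dispersion 0) or per gene (estimated dispersion), and reads over the most covered intron of a gene with TMM. DESeq2 1.42.0 was an alternative. The scripts were tested on simulated counts: the intron test was conservative and found few changes in introns near full splicing, and the gene test made somewhat more false calls than its threshold. Read totals, PCR without molecular identifiers and 2 samples a group limit the precision. Exon and junction sequences are from the GENCODE 29 transcripts, on GRCh38.

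Members, the partner list and the markers were chosen with earlier results of these data known. Named are the 10 members with the most overlaps, the 5 introns and genes with the smallest p in each direction among those whose groups do not overlap (for nascent reads likewise), TRIM28, SETDB1 and the 3 partners with the smallest p. Genes named for the highest or lowest splicing, ZNF765's splicing and the introns of ZNF460, ZNF808 and ZNF28 were chosen after their values were seen.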

Additional observations from a re-analysis of the deposited data

How the results depend on the processing

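No member intron or gene passed the threshold in any test under the alternatives run (other read minimums, ratios above 1 left out, most used introns, another dispersion, DESeq2, other scalings, each sample left out, a replicate block). The 22 named results kept their direction in all 205 alternative values that could be had, but this was largely fixed in advance. For the splicing of introns and genes, another test, dispersion, block or read minimum leaves the difference itself as it was. The named results were also chosen because their groups do not overlap, so leaving out 1 sample cannot turn a difference in splicing. The kept direction is therefore no support for these results. Among all introns of the series, the 5 calls became 2 with an estimated dispersion, 0 with DESeq2 and 0 to 11 with 1 sample left out (0 without K700E replicate 2). Replicate numbers share only a number, and the K700E files number their samples differently inside, so a block on them may not pair anything: replicate differences in WT and K700E correlated at -0.167 (intron efficiency), -0.0597 (gene efficiency) and 0.00767 (nascent reads), and the replicate block gave 4 intron calls, 0 in members. With 1 sample left out, some differences moved by over 1.5 times without turning: ZNF266 to -5.79 percentage points without K700E replicate 2 and -26.1 without K700E replicate 1, the ZNF468 intron to 4.49 and 19.2 likewise, and ZNF726 to 9.09 without K700E replicate 2 and 8.36 without WT replicate 1. The crossed replicate block, chosen after seeing the data, gave 8 intron calls, 0 in members.

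The mean efficiency of the 17 introns, K700E minus WT, was 5.79 percentage points, 0.998 at 5 reads (163 introns) and 1.74 to 5.48 with 1 sample left out. By position, the 3 first introns gave 10.1 (0.31 at 5 reads, 3.63 to 7.15 with 1 sample left out). The 8 internal introns gave 8.13 (1.62 at 5 reads, 13.3 in most used introns, 4.76 to 7.94 with 1 sample left out). The 2 last introns gave 2.30 (-1.71 to 6.57 with 1 sample left out). The 2 introns whose position varies between transcripts gave -9.84 (1.71 at 5 reads, -14.4 to 0.806 with 1 sample left out). The 2 sole introns gave 9.06 (18.1 in most used introns, 1.56 to 16.6 with 1 sample left out). Several of these introns belong to ZNF714 and can share reads. At 5 reads, and with 1 sample left out (up to 37 introns in all), other introns entered the means. The means over last introns and over introns of varying position changed sign. At 20 reads in every sample no member intron was left for them. The difference in the members' share of overlaps stayed between 0.205 and 0.483 percentage points with 1 sample left out; that in their spliced share ran from -12.2 to 7.19. The median log2 ratio of nascent reads was 0.33 with no filter, 0.59 over all introns and 0.43 to 1.26 with 1 sample left out. The cause of these shifts was not tested.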
